A study of Mus musculus with 12 samples.

Results

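The 10 genes described here encode shelterin, telomerase and partners of both at the chromosome end: Terf1, Terf2, Tinf2, Acd, Pot1a, Pot1b, Rtel1, Ctc1, Tert and Dkc1. They were taken by gene symbol from 41079 genes in the tables, and all 10 were among the 14107 genes with a mean abundance of at least 1 TPM (a length-scaled share of a library's transcripts, set to the same total in every library). RNA came from mouse embryonic stem cells, which are pluripotent cells of the early embryo, in 4 groups of 3 libraries labelled as biological replicates. The groups were untreated wild type, wild type given etoposide, an untreated Bod1L knockout, and that knockout given etoposide. Etoposide is a topoisomerase II poison that breaks DNA. The Bod1l protein belongs to SETD1A complexes, which methylate histone H3 at lysine 4, and the series is titled for a role of this subunit in the expression of DNA repair genes. Tamoxifen stands in the titles of the knockout libraries in both treatments and in no wild-type title, so knockout and tamoxifen cannot be told apart in any genotype comparison. The dose and duration of etoposide, the number of knockout clones and the way the knockout was made are not given in the sources used here.

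Telomeres are the repeated DNA ends of chromosomes, and shelterin is the protein complex that coats them and keeps repair enzymes from treating them as breaks. Terf1 and Terf2 bind the double-stranded repeat, Pot1 binds the single-stranded overhang, and Tinf2 and Acd join these together. Telomerase, with its reverse transcriptase Tert and its RNA held by dyskerin, the product of Dkc1, adds repeats, and embryonic stem cells are among the cells in which it is active. Ctc1 is the large subunit of the CST complex, which ends telomerase extension and brings in polymerase alpha for the second strand, and Rtel1 is a helicase that unwinds telomere loops.

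The libraries held 5.23 to 7.76 gigabases of aligned sequence each, and replicates correlated across genes at r = 0.994 to 0.996. Bod1l stood at 48.5, 48.8 and 50.6 TPM in untreated wild type and at 12.0, 11.2 and 11.5 TPM in the untreated knockout. With etoposide it stood at 46.5, 51.1 and 48.6 TPM in wild type and at 13.0, 12.4 and 11.7 TPM in the knockout. The knockout mean was therefore 23.5% of the wild-type mean without the drug and 25.3% with it, and every library matched its genotype label. Pluripotency markers (9 of 10 names found) summed to 8572 to 8585 TPM in untreated wild type, 8002 to 8320 in treated wild type, 7875 to 8000 in the untreated knockout and 7437 to 7771 in the knockout given etoposide. Markers of extraembryonic endoderm were low in all groups, at 3.67 to 4.46, 5.14 to 7.16, 6.56 to 7.63 and 7.05 to 8.36 TPM in the same order, untreated wild type lying under the rest. Neuroectoderm markers, most of it Tubb3, summed to 139 to 150 TPM in the untreated groups and to 125 to 132 TPM in the treated ones, and feeder fibroblast markers to 9.87 to 12.0 TPM in all. Zscan4 and 2-cell-like genes, active in a small fraction of cultured stem cells in which Zscan4 acts on telomeres, summed to 5.74 to 8.35 TPM in wild type and to 53.9 to 70.8 TPM in the knockout. Among the pluripotency markers Dppa5a was the most abundant. Its mean without the drug was 3806 TPM for wild type and 3259 TPM for the knockout. With etoposide the means were 3932 and 3335 TPM. In limma's test (adjusted p under 0.05), 1 of the 9 was higher and 3 were lower in the untreated knockout. Between treated genotypes 4 were higher and 2 lower in the knockout. Etoposide lowered 6 of the 9 in each genotype and raised 0. The part of these marker shifts in the differences given below was not tested. In such bulk samples, fewer cells expressing a gene and less RNA per cell cannot be told apart.

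**Figure D1:**
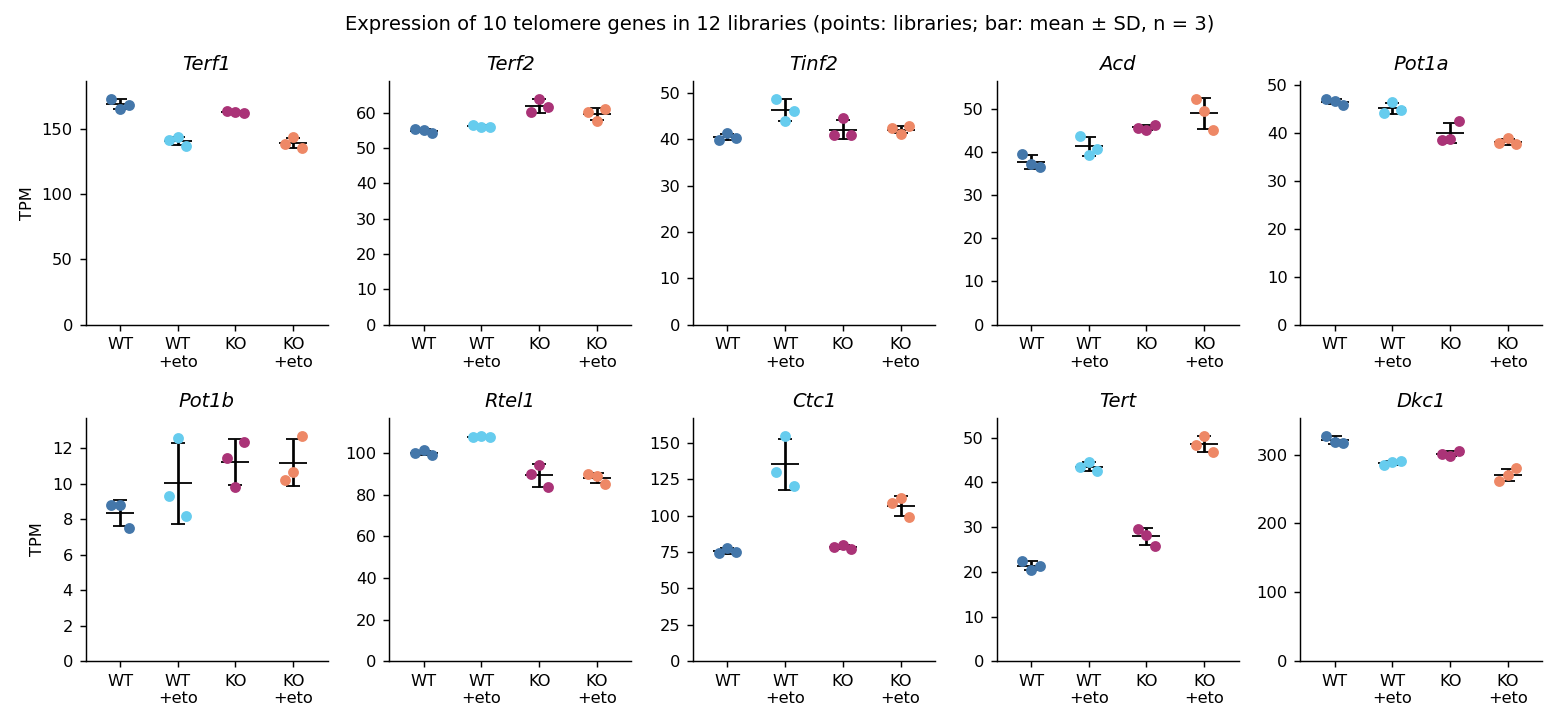
Abundance in TPM (y axis, from 0) of the 10 genes in untreated wild type (WT), treated wild type (WT +eto), untreated knockout (KO) and treated knockout (KO +eto), with a point for each library and a bar for the mean ± SD of 3 libraries. Tert and Ctc1 stand higher in the treated groups, and Terf1 and Dkc1 stand lower there.

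In untreated wild type the 10 genes spanned from Dkc1 at 320.5 TPM to Pot1b at 8.37 TPM. Between them came Terf1 at 169 TPM, Rtel1 at 100.1, Ctc1 at 75.7, Terf2 at 55.0, Pot1a at 46.5, Tinf2 at 40.5, Acd at 37.7 and Tert at 21.4. The 3 libraries of each gene did not overlap those of its neighbour in that order. In treated wild type the order changed: Ctc1 overlapped Terf1 behind Dkc1, and Tinf2, Pot1a, Tert and Acd formed a run in which each gene overlapped the next. In the untreated knockout the overlapping neighbours were Tinf2 and Pot1a. In the treated knockout Tert at 48.5 TPM overlapped Acd at 48.9 TPM and lay above Tinf2 and Pot1a, both of which exceed it in untreated wild type.

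Between genotypes without the drug, Terf2, Acd, Pot1b and Tert were higher in the knockout and Pot1a, Rtel1 and Dkc1 were lower, 7 of 10 genes in limma's test at an adjusted p under 0.05. Of all 14107 genes tested, 49.6% differed in this comparison, 28.1% higher and 21.5% lower, so a genotype difference was common and the count of 7 does not set these genes apart. With etoposide in both genotypes, 8 of 10 differed, against 44.1% of all genes (22.5% higher, 21.7% lower): Terf2, Acd and Tert were higher in the knockout, and Tinf2, Pot1a, Rtel1, Ctc1 and Dkc1 were lower. That count was 5 without treated wild-type library 1 or 3 and 4 without treated knockout library 1. Etoposide in wild type raised Tert, Ctc1 and Tinf2 and lowered Terf1 and Dkc1, 5 of 10 against 34.3% of all genes (20.8% higher, 13.5% lower). In the knockout it raised Tert and Ctc1 and lowered Terf1 and Dkc1, 4 of 10 against 25.0% (14.5% higher, 10.5% lower). The median difference of the 10 genes, in the order of these comparisons, was 0.05, -0.05, 0.12 and -0.01 on the log2(TPM + 1) scale, beside 0.04, 0.02, 0.02 and 0.00 over all genes tested. Among all genes the etoposide calls in wild type split as 2937 higher and 1904 lower, and as 2166 higher and 2771 lower after quantile normalization. The majority direction also turned with FPKM between untreated genotypes (3090 higher, 3204 lower) and between treated ones (2578 and 3048), and with quantile normalization for etoposide in the knockout (1784 and 1840). The comparisons share libraries, so their counts are not independent, and the p-values measure only the spread between libraries, since separate cultures are not described.

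**Figure D2:**
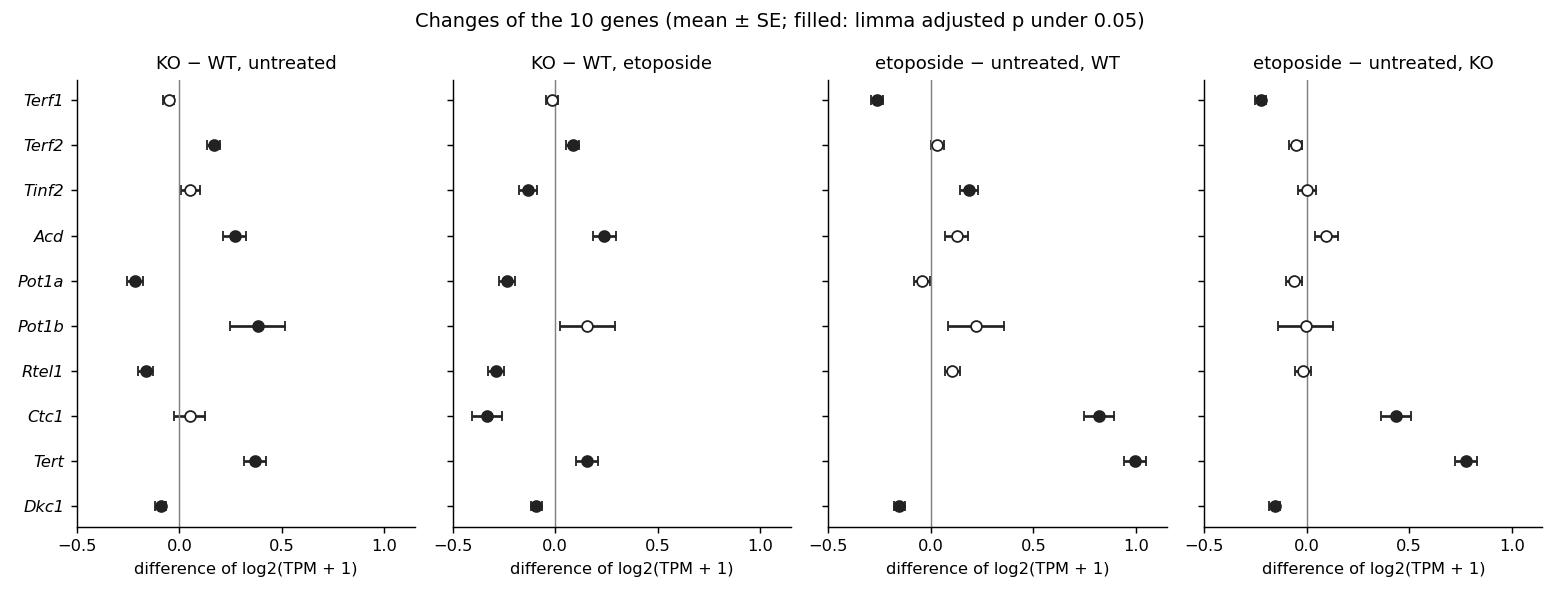
Differences of log2(TPM + 1) between groups (x axis, mean ± SE from limma, 3 libraries a group) for the 10 genes (y axis) in 4 comparisons, with filled points for an adjusted p under 0.05. The etoposide differences of Tert and Ctc1 are the points farthest from 0, at 0.99 and 0.82 in wild type.

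Tert, the catalytic subunit of telomerase, had the greatest difference of the 10 genes in each etoposide comparison. Its abundance was 22.4, 20.4 and 21.3 TPM in untreated wild type and 43.6, 44.5 and 42.6 TPM with etoposide. In the knockout it was 29.7, 28.3 and 25.7 TPM untreated and 48.3, 50.4 and 46.9 TPM with etoposide. The 4 groups did not overlap: untreated wild type was lowest, then the untreated knockout, then treated wild type, then the treated knockout. Etoposide raised the mean from 21.4 ± 1.02 to 43.5 ± 0.958 TPM in wild type (SD, n = 3), a 2.04-fold difference and a log2 difference of 0.99 ± 0.05 (SE; limma adjusted p = 3.41e-08). In the knockout the mean went from 27.9 ± 2.01 to 48.5 ± 1.80 TPM, a 1.74-fold difference (log2 difference 0.78 ± 0.05, limma adjusted p = 7.74e-07). Only 362 of the 14107 genes had a greater log2 rise in wild type, and 286 in the knockout.

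Tert also differed between genotypes. Without the drug the knockout mean was 1.31-fold that of wild type (log2 difference 0.37 ± 0.05, limma adjusted p = 0.000131). With etoposide it was 1.11-fold (0.15 ± 0.05, limma adjusted p = 0.0359), and this call was lost without treated wild-type library 1, 2 or 3 (limma adjusted p = 0.0763, 0.0508 and 0.105), and without treated knockout library 1 or 2 (0.0723 and 0.126), and with no filter on low values (0.0639). The interaction, the etoposide difference in the knockout minus that in wild type, was -0.22 ± 0.08 for Tert and did not pass (limma adjusted p = 0.27, unadjusted 0.0146), so the smaller fold in the knockout is not shown to differ from that in wild type.

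The Tert gene lies at chr13:73775030-73797962 on the plus strand (GRCm39) and no other gene of the tables overlaps it. The 250 bases before its start, and those of Ctc1 and Dkc1, are shown because Tert and Ctc1 rose with etoposide in both genotypes and Dkc1 fell. They are RefSeq sequence of another build, GRCm38.p6, from chr13:73626661-73626910 for Tert, chr11:69015661-69015910 for Ctc1 and chrX:75095604-75095853 for Dkc1, all on the plus strand, and 9 of the 10 genes had an entry. The gene without one was Terf1, which also fell with etoposide in both genotypes, so its window was not searched. Capitals mark a GC box (GGGCGG or its other strand CCGCCC) or an E-box (CACGTG, the same on both strands).
Tert: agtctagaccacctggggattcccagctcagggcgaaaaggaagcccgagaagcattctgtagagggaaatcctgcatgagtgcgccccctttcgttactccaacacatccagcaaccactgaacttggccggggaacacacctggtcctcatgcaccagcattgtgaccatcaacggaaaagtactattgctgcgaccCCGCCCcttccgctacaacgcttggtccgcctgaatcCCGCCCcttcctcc
Ctc1: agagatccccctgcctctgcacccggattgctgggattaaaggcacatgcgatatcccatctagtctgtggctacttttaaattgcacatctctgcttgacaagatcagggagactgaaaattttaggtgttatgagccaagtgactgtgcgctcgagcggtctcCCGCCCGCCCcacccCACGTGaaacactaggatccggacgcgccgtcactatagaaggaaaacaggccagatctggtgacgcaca
Dkc1: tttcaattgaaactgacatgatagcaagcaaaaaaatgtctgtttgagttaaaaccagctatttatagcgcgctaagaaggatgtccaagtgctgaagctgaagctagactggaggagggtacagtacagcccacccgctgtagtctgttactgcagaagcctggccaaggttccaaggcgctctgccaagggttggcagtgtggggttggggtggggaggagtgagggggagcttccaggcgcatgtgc
Tert held 2 GC boxes close to its start. Ctc1 held 2 that overlap each other, with an E-box a few bases downstream. Dkc1 held no match to either motif. A GC box was found in 32.9% of 27025 windows of this kind, taken once per gene, and an E-box in 6.05%. Among the 9 windows, Ctc1, Pot1a, Pot1b, Rtel1 and Tert held a GC box, and Ctc1 alone held the E-box. A CCAAT box (CCAAT or ATTGG), found in 34.5% of all windows, was in those of Acd, Pot1b and Terf2, and a CRE (TGACGTCA), found in 1.62%, was in that of Tinf2. The GC content was 57.2% for Tert, 53.2% for Ctc1 and 52% for Dkc1, beside a median of 52% over all windows, and CG pairs numbered 12, 13 and 5, beside a median of 6. These matches describe letters only.

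Dkc1 encodes dyskerin, which holds the telomerase RNA and also guides pseudouridylation of ribosomal RNA, and it was the most abundant of the 10 genes in every group. Untreated wild type gave 327, 318 and 316 TPM and treated wild type 285, 289 and 290.0 TPM. The untreated knockout gave 300.05, 298 and 305 TPM and the treated knockout 261, 269.9 and 279.9 TPM. The treated groups lay wholly below their untreated groups, and each knockout group wholly below its wild-type group. Etoposide lowered Dkc1 in wild type (log2 difference -0.15 ± 0.03, limma adjusted p = 0.000644) and in the knockout (-0.16 ± 0.03, limma adjusted p = 0.000913). The interval of the interaction was -0.08 to 0.08 (95%, limma). Between genotypes Dkc1 was lower in the knockout by a log2 difference of -0.09 ± 0.03 without the drug and by the same amount with it (limma adjusted p = 0.0126 and 0.0132). The first of these calls was lost without untreated wild-type library 1 (limma adjusted p = 0.0528) and the second without treated knockout library 1 (0.0567). Dkc1 lies at chrX:74139460-74153382 (plus strand), shares 44 bases with Mpp1 on the other strand and contains the small gene Gm25520.

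In shelterin, Terf1, which binds the double-stranded repeat and aids its replication, responded to etoposide. Its values were 173, 165 and 168 TPM in untreated wild type and 141, 144 and 137 TPM with the drug. In the knockout they were 163, 163 and 162 TPM untreated and 139, 143 and 136 TPM treated. Treated and untreated libraries did not overlap in either genotype. The log2 difference was -0.26 ± 0.03 in wild type (limma adjusted p = 1.57e-05) and -0.22 ± 0.03 in the knockout (limma adjusted p = 0.0001). Genotypes did not pass the test in either treatment. The untreated knockout libraries all lay under those of wild type, by a log2 difference of -0.05 (95% interval -0.11 to 0.01; limma adjusted p = 0.145), which passed after median-of-ratios scaling (-0.07, limma adjusted p = 0.0408) and with FPKM in place of TPM (-0.08, limma adjusted p = 0.0313). With etoposide the interval was -0.08 to 0.05. Terf1 lies at chr1:15875634-15914283 on the plus strand, with no overlapping gene.

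Terf2, which forms the loop at the telomere end and holds back the ATM kinase, was higher in the knockout. Its values were 55.4, 55.2 and 54.4 TPM in untreated wild type against 60.1, 63.9 and 61.8 TPM in the untreated knockout. With etoposide they were 56.5, 56.1 and 55.9 TPM in wild type and 60.1, 57.7 and 61.2 TPM in the knockout. Every knockout library exceeded every wild-type library of the same treatment. The log2 difference was 0.17 ± 0.03 without the drug (limma adjusted p = 0.000942) and 0.08 ± 0.03 with it (limma adjusted p = 0.0482). The second call was lost without any 1 of the 3 treated wild-type libraries (limma adjusted p = 0.0795, 0.097 and 0.111) or treated knockout library 1 or 3 (0.117 and 0.155), and with FPKM, median-of-ratios scaling, a robust spread or a fit on the compared groups alone (0.156, 0.0602, 0.0537 and 0.0821). The etoposide difference did not pass in wild type (95% interval -0.04 to 0.10) or in the knockout (-0.12 to 0.02). The gene lies at chr8:107796032-107823180 on the minus strand. It overlaps Gm50601 on the same strand over 10477 bases, and Gm50601 was also higher in the untreated knockout (5.39 TPM in wild type, 7.24 TPM in the knockout; log2 difference 0.37 ± 0.07, limma adjusted p = 0.000819). Terf2 also shares 82 bases on that strand with Mir7075. Etoposide raised Mir7075 in wild type from 1.59 to 3.61 TPM (log2 difference 0.85 ± 0.29, limma adjusted p = 0.0401). In the knockout its difference of 0.39 did not pass (limma adjusted p = 0.373). How reads of the shared bases were divided between these genes is not given in the sources used here.

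Tinf2, the hub that joins Terf1 and Terf2 to Acd, gave 39.8, 41.3 and 40.3 TPM in untreated wild type and 48.6, 43.9 and 46.1 TPM with etoposide. In the knockout it gave 40.9, 44.5 and 40.8 TPM untreated and 42.4, 41.1 and 42.7 TPM treated. Treated wild type stood above untreated wild type and above the treated knockout without overlap, and the knockout groups overlapped each other. Etoposide raised Tinf2 in wild type by a log2 difference of 0.19 ± 0.04 (limma adjusted p = 0.00627), while in the knockout the 95% interval ran from -0.10 to 0.10. The interaction was -0.19 ± 0.06 and did not pass (limma adjusted p = 0.257, unadjusted 0.0126). In treated cells the knockout was lower by a log2 difference of -0.13 ± 0.04 (limma adjusted p = 0.0318). That call was lost without treated wild-type library 1 or 3 (limma adjusted p = 0.129 and 0.0686) or treated knockout library 1 or 2 (0.0608 and 0.101). It was also lost with no filter on low values (0.0502) and after quantile normalization (0.0513). Tinf2, at chr14:55912120-55919265 on the minus strand, lies wholly inside the span of Gmpr2 on the plus strand, a gene of 13.3 to 19.9 TPM in group means. Gmpr2 was lower in the untreated knockout (log2 difference -0.41 ± 0.08, limma adjusted p = 0.00144). It was also lower in the treated knockout (-0.35 ± 0.08, limma adjusted p = 0.00448), where Tinf2 was called lower too. With etoposide in wild type, where Tinf2 rose, Gmpr2 did not pass (-0.19 ± 0.08, limma adjusted p = 0.099). The libraries were strand-specific, and whether the counting used strand is not stated, so reads of the shared span cannot be told apart here.

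Acd, known as TPP1, carries Pot1 to the telomere and recruits telomerase. It gave 39.5, 37.2 and 36.4 TPM in untreated wild type and 45.5, 45.1 and 46.3 TPM in the untreated knockout. With etoposide it gave 43.8, 39.3 and 40.7 TPM in wild type and 52.2, 49.6 and 44.99 TPM in the knockout. Knockout libraries exceeded wild-type libraries in both treatments without overlap. The log2 difference was 0.27 ± 0.06 untreated (limma adjusted p = 0.00169) and 0.24 ± 0.06 treated (limma adjusted p = 0.00433). Treated and untreated libraries overlapped in each genotype, and the etoposide differences of 0.13 and 0.10 did not pass (limma adjusted p = 0.104 and 0.246). Acd lies at chr8:106424789-106427748 on the minus strand and shares 39 bases with Carmil2 on the other strand, a gene of 4.04 to 6.15 TPM.

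Pot1a and Pot1b are the mouse paralogs of the human gene POT1 and bind the single-stranded overhang. Pot1a holds back the ATR kinase there, and Pot1b limits resection of the C-rich strand. Pot1a gave 47.0, 46.6 and 45.8 TPM in untreated wild type and 38.6, 38.8 and 42.4 TPM in the untreated knockout. With etoposide it gave 44.2, 46.3 and 44.7 TPM in wild type and 37.8, 38.9 and 37.7 TPM in the knockout. Every knockout library lay under every wild-type library, with log2 differences of -0.22 ± 0.04 untreated and -0.23 ± 0.04 treated (limma adjusted p = 0.000786 and 0.000535). Etoposide differences did not pass, with 95% intervals of -0.13 to 0.04 in wild type and -0.15 to 0.02 in the knockout. Pot1a lies at chr6:25743939-25809280 on the minus strand, with no overlapping gene.

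Pot1b, the least abundant of the 10 genes in every group, went the other way from Pot1a between untreated genotypes. It gave 8.79, 8.80 and 7.50 TPM in untreated wild type and 11.5, 9.84 and 12.4 TPM in the untreated knockout. With etoposide it gave 9.32, 12.6 and 8.20 TPM in wild type and 10.2, 10.7 and 12.7 TPM in the knockout. The untreated groups did not overlap, and the treated groups did, with wild-type library 2 inside the range of the knockout. The untreated log2 difference was 0.38 ± 0.14 (limma adjusted p = 0.0336). This call was lost without untreated wild-type library 2 or 3 (limma adjusted p = 0.0503 and 0.114), without untreated knockout library 1 or 3 (0.0817 and 0.112), and with no filter on low values (0.0842). In treated cells the difference was 0.16 (95% interval -0.14 to 0.45), and without treated wild-type library 2 it was 0.32 and passed (limma adjusted p = 0.0485). Pot1b lies at chr17:55958190-56019647 on the minus strand and contains the small gene Gm22654, which is listed at 0 in every group.

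The ratio of Pot1b to Pot1a within a library does not depend on scaling between libraries. It was 0.187, 0.189 and 0.164 in untreated wild type and 0.297, 0.254 and 0.291 in the untreated knockout. With etoposide it was 0.211, 0.272 and 0.184 in wild type and 0.27, 0.274 and 0.337 in the knockout. The untreated groups did not overlap, with means of 0.180 ± 0.0140 and 0.281 ± 0.0236 (SD, n = 3) and a two-sided exact permutation p of 0.1, the smallest that 3 against 3 libraries allow. In treated cells, where the groups overlapped, the exact permutation p was 0.2. Etoposide against no drug gave exact permutation p values of 0.3 in wild type and 0.8 in the knockout. Adjusted over these 4 comparisons by Benjamini-Hochberg, the exact permutation p values were 0.4, 0.4, 0.4 and 0.8, so none passed in a design that cannot go below 0.1.

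**Figure D3:**
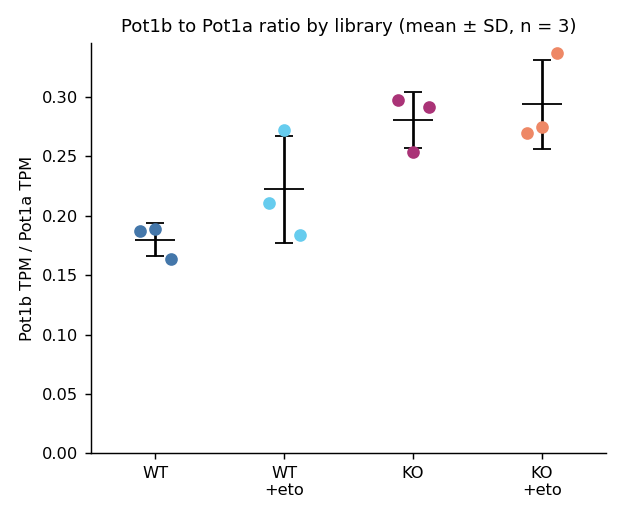
Ratio of Pot1b TPM to Pot1a TPM in each library (y axis, from 0) by group, with a point for each library and a bar for the mean ± SD of 3 libraries. The untreated knockout libraries lie between 0.254 and 0.297, above the untreated wild-type libraries at 0.164 to 0.189.

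Ctc1, the CST subunit, rose with etoposide in both genotypes. It gave 74.3, 78.1 and 74.8 TPM in untreated wild type and 130.04, 154.7 and 120.3 TPM with the drug. In the knockout it gave 78.3, 80.0 and 76.8 TPM untreated and 108, 112 and 99.0 TPM treated. The untreated groups overlapped, and the treated groups stood above them and apart from each other, with wild type higher. In wild type the mean went from 75.7 ± 2.06 to 135.0 ± 17.7 TPM (SD, n = 3), a 1.78-fold difference (log2 difference 0.82 ± 0.07, limma adjusted p = 3.4e-06). In the knockout it went from 78.4 ± 1.59 to 106 ± 6.71 TPM, a 1.36-fold difference (0.44 ± 0.07, limma adjusted p = 0.000956). Treated wild-type library 2 was the highest of the 12, and the lowest log2 difference in wild type over the fits that left out a library was 0.72.

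Between genotypes Ctc1 did not pass without the drug (95% interval -0.11 to 0.21) and was lower in the knockout with it (log2 difference -0.33 ± 0.07, limma adjusted p = 0.00312). Its interaction was the largest in size among the 10 genes, at -0.38 ± 0.10, and did not pass (limma adjusted p = 0.14, unadjusted 0.00321). No alternative setting brought it under 0.05, with a range of adjusted p from 0.0539 to 0.306. Ctc1 lies at chr11:68906014-68927299 on the plus strand, with no overlapping gene.

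Rtel1 gave 100.0, 101.3 and 99.2 TPM in untreated wild type and 107.6, 108.3 and 107.6 TPM with etoposide. In the knockout it gave 90.1, 94.3 and 83.6 TPM untreated and 89.8, 89.1 and 85.2 TPM treated. Every knockout library lay under every wild-type library of its treatment, and treated wild type lay above untreated wild type. The genotype log2 difference was -0.16 ± 0.04 untreated (limma adjusted p = 0.00382) and -0.29 ± 0.04 treated (limma adjusted p = 8.67e-05). The etoposide difference in wild type, 0.11 ± 0.04, narrowly missed the threshold (limma adjusted p = 0.0537), and it passed with a filter at 5 TPM, after quantile normalization and in a fit on the compared groups alone (limma adjusted p = 0.0490, 0.0314 and 0.0151). In the knockout the interval was -0.10 to 0.07. Rtel1 lies at chr2:180961504-180998409 on the plus strand, with no overlapping gene.

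**Figure D4:**
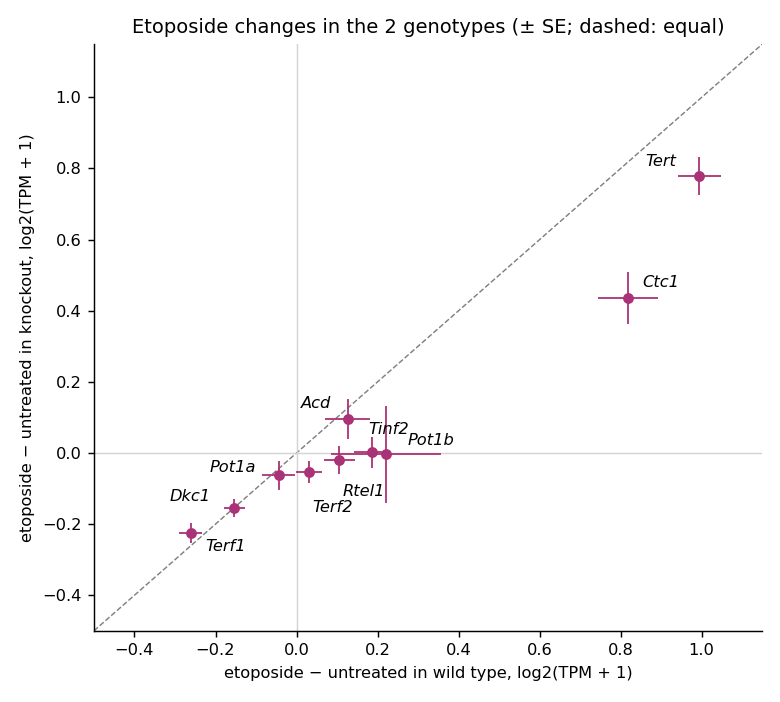
Etoposide difference of log2(TPM + 1) in wild type (x axis) against that in the knockout (y axis) for the 10 genes, with SE bars from limma and a dashed line of equality. Ctc1 (0.82 in wild type, 0.44 in the knockout) and Tert (0.99 and 0.78) lie below the line, and Terf1 and Dkc1 lie near it.

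Over the interaction as a whole, 0 of the 10 genes passed limma's test, and 4 had an unadjusted p under 0.05: Ctc1, Tinf2, Tert and Rtel1 (-0.12 ± 0.05, unadjusted p = 0.0425, limma adjusted p = 0.416). All 4 had a negative interaction, the smaller etoposide difference in the knockout. Among all genes tested 174, or 1.23%, passed, 0.0709% with a positive and 1.16% with a negative interaction (93 to 131 genes when any library was left out). Most calls over all genes were thus negative too, so the shared sign does not set these 4 apart. An unadjusted p under 0.05 was found for 1604 of the 14107 genes, and their signs were not counted. The median interaction was -0.10 for the 10 genes and -0.02 for all genes.

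Across the 12 libraries, log2 values of Tert and Terf1 correlated at r = -0.94, Tert and Dkc1 at -0.93, Terf1 and Dkc1 at 0.86, and Ctc1 and Tert at 0.84. Acd and Pot1a correlated at -0.85, and Pot1a and Rtel1 at 0.75. Terf1 and Ctc1 correlated at -0.84, Terf2 and Pot1a at -0.81, and Acd and Dkc1 at -0.77. No other pair reached 0.75 in size, and some lay near 0, such as Terf1 and Terf2 (-0.09) and Terf2 and Tinf2 (0.03). These are descriptions over libraries that fall into 4 groups and share their genotype and treatment within a group. By the same measure the genes most like Tert were C4b (r = 0.995), Fam168a (0.994) and Ampd2 (0.993). Ampd2, an AMP deaminase, had group means of 55.3 TPM in untreated wild type, 82.6 treated, 64.8 in the knockout untreated and 89.8 treated, the order of groups seen for Tert. C4b, a complement gene, was low, at 0.448, 2.43, 1.05 and 3.27 TPM. The genes most like Acd were Rps15 (0.957), Sec61b and Tcaf2 (both 0.952), and those most like Pot1b were Trmt10b (0.864), Vezf1 (0.861) and Rab14 (0.852). These 3 members were taken because their untreated genotype differences were the greatest of the 10.

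A wider set of 64 telomere-related genes in 6 lists, of which 62 passed the filter, gave 15 higher and 17 lower in the untreated knockout, against the 28.1% and 21.5% of all genes. With etoposide in both genotypes 11 were higher and 13 lower in the knockout, against 22.5% and 21.7% of all genes. Etoposide in wild type raised 10 and lowered 9, against 20.8% and 13.5%, and in the knockout it raised 9 and lowered 11, against 14.5% and 10.5%. The untreated counts of each list given next are to be read against 28.1% higher and 21.5% lower. In limma's interaction test 0 of the 62 passed, against 1.23% of all genes. An unadjusted p under 0.05 was found for 4 of the 62, against 1604 of all 14107 genes tested. The median untreated genotype difference was -0.02, beside 0.04 over all genes.

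Among 12 other shelterin, CST and telomere-bound factors, 2 were higher and 4 lower in the untreated knockout. Stn1, a CST partner of Ctc1, went from 37.7 to 29.3 TPM (log2 difference -0.35 ± 0.05, limma adjusted p = 0.000232) and differed as much with etoposide (-0.35). Ten1, the remaining CST subunit, did not pass (21.5 and 19.7 TPM, limma adjusted p = 0.335). Nabp2, a single-strand DNA binding protein of the break response, was lower in the untreated knockout (64.3 to 49.8 TPM, -0.36 ± 0.04, limma adjusted p = 7.11e-06) and was raised by etoposide in wild type to 82.6 TPM. Rif1, which acts at telomeres and at breaks, was higher in the untreated knockout (155 to 178 TPM, 0.20) and in the treated one (0.24). Zbtb48, a zinc-finger protein of the telomeric repeat, was higher in the untreated knockout (0.18), and the treated difference of 0.08 did not pass (limma adjusted p = 0.184). Terf2ip, the shelterin subunit known as Rap1, did not pass (16.9 and 17.8 TPM, limma adjusted p = 0.22).

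Of 10 genes of the telomerase particle and its assembly, 3 were higher and 4 lower in the untreated knockout. Lower were Nop10, a small protein bound to dyskerin (276 to 215 TPM, -0.36 ± 0.03, limma adjusted p = 1.4e-06), Shq1, a chaperone of dyskerin (28.8 to 17.9 TPM, -0.66), Tep1 (8.97 to 5.87 TPM, -0.54) and the ATPase Ruvbl1 (-0.14). Wrap53, which carries telomerase to Cajal bodies, was higher in the knockout (38.0 to 47.7 TPM, 0.32 ± 0.05, limma adjusted p = 0.000384), and etoposide raised it in wild type (0.43) and in the knockout (0.34). Etoposide lowered Ruvbl1 in wild type (-0.18), and in the knockout the difference of -0.05 did not pass (limma adjusted p = 0.278). Ruvbl2 of the same list, named after its values were seen, went the other way. It was higher in the knockout (0.16 untreated, 0.20 treated, limma adjusted p = 0.0043 and 0.00138). Etoposide raised Ruvbl2 in wild type (0.21) and in the knockout (0.25, limma adjusted p = 0.00134 and 0.00062). Terc, the telomerase RNA, named after its values were seen, has no poly(A) tail in its mature form and stood at only 2.42 ± 0.827 TPM in untreated wild type and 5.10 ± 1.38 TPM in the untreated knockout (SD, n = 3; log2 difference 0.84 ± 0.28, limma adjusted p = 0.0279). Its libraries ranged from 1.64 to 3.29 TPM and from 3.52 to 6.11 TPM in those groups. With etoposide the genotypes overlapped (3.45 to 3.93 TPM in wild type, 2.81 to 8.47 TPM in the knockout) and the difference of 0.33 did not pass (limma adjusted p = 0.369).

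Among 6 genes that process the telomerase RNA, 2 were higher and 1 lower in the untreated knockout. Higher were Tgs1, which forms the trimethylguanosine cap (0.19), and the exosome nuclease Exosc10 (0.14), and lower was Parn, a deadenylase that matures the RNA (36.5 to 30.2 TPM, -0.27 ± 0.05, limma adjusted p = 0.00144). Etoposide raised Parn in wild type (0.30) and in the knockout (0.37) and lowered Tent4b, the polymerase that adds adenosines to that RNA, in wild type (-0.24). In the knockout the Tent4b difference of -0.12 did not pass (limma adjusted p = 0.0738). Of 12 tested regulators of telomerase and shelterin (13 names), 4 were higher and 1 lower in the untreated knockout. Pinx1, an inhibitor of telomerase, was lower (36.6 to 24.6 TPM, -0.56 ± 0.06, limma adjusted p = 1.51e-05), and Smg5 (0.26), Smg6 (0.16) and the tankyrase gene Tnks (0.16) were higher. The helicase gene Pif1 fell with etoposide in wild type (-0.37) and in the knockout (-0.36), as did Ptges3, a chaperone partner of Tert (both -0.21).

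Among 12 helicases and fill-in factors of telomere replication, 2 were higher and 3 lower in the untreated knockout. Wrn, a RecQ helicase, was lower (7.64 to 3.80 TPM, -0.85 ± 0.08, limma adjusted p = 2.56e-06), as was Blm (-0.21). The nuclease Dna2 (57.3 to 70.1 TPM, 0.28) and the nuclease scaffold Slx4 (0.19) were higher, and etoposide raised both in wild type (0.30 and 0.31). Of 10 tested transcription factors known to act on Tert (11 names, with Wt1 below the filter), 2 were higher and 4 lower in the untreated knockout. All differences named were small: Max (-0.13), E2f1 (-0.16), Mycn (-0.09) and Ctnnb1 (0.10). With etoposide E2f1 and Mycn did not pass between genotypes (limma adjusted p = 0.0592 and 0.0549), nor did Ruvbl1 and Smg6 of the lists above (0.849 and 0.244). Etoposide lowered Mycn (103 to 75.4 TPM, -0.45 ± 0.03, limma adjusted p = 5.7e-08) and Myc (29.0 to 20.5 TPM, -0.48 ± 0.06, limma adjusted p = 8.51e-05) in wild type. It lowered both in the knockout as well (-0.42 and -0.34, limma adjusted p = 3.31e-07 and 0.00174). Of the 10 tested factors, etoposide raised 2 and lowered 4 in wild type, against 20.8% and 13.5% of all genes. In the knockout it raised 2 and lowered 3, against 14.5% and 10.5%. The part of these factors in the Tert differences was not tested.

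**Figure D5:**
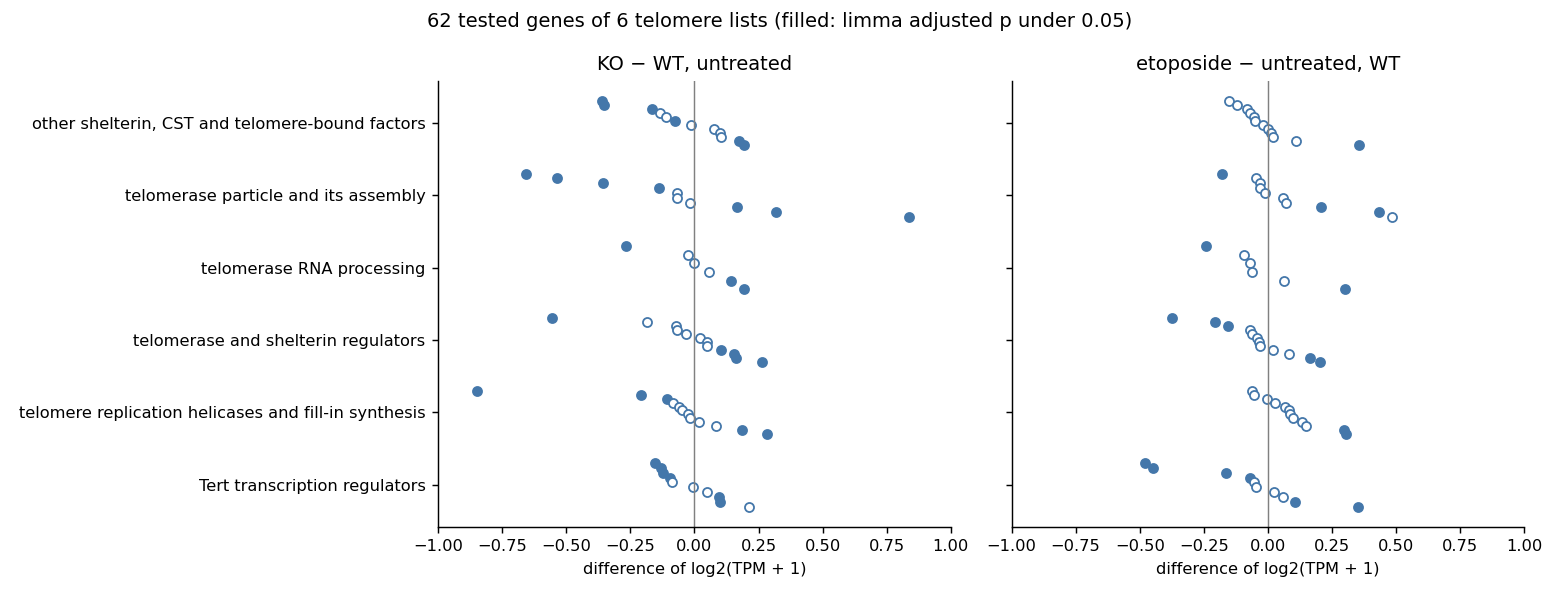
Differences of log2(TPM + 1) (x axis) of 62 tested genes in 6 lists (rows, each point a gene, sorted within its row) between untreated genotypes (left) and with etoposide in wild type (right), with filled points for a limma adjusted p under 0.05. Calls lie on both sides of 0 in both panels, 15 higher and 17 lower between genotypes.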

How the data were processed

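Gene-level RNA abundance was taken from 12 mouse embryonic stem cell libraries in 4 groups of 3. Per the labels, RNA went through Trizol extraction, poly(A) selection, ribosomal RNA depletion and a strand-specific kit. Per the submitters' processing notes, Trim Galore 0.6.6, cutadapt 3.4, HISAT2 2.2.1, StringTie 2.2.1 and the build GRCm39 were used. The deposited TPM values are the authors' per-gene abundances, scaled by length and to a fixed total per library. The deposited FPKM values are scaled by length and mapped fragments, and were used as an alternative unit. The deposited coverage values are mean read depth per gene and served here only to work out aligned bases, from their ratio to FPKM. No read counts were used.

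The 10 members and the lists of related genes were chosen with earlier results of these data known. Genes with a mean of at least 1 TPM (14107 of 41079) were analysed as log2(TPM + 1), which understates the fold of low genes. limma 3.58.1 (R 4.3.3) was fitted to the 4 group means with trended moderated variances (3.91 prior and 8 residual degrees of freedom). Benjamini-Hochberg adjustment ran over all genes tested in each comparison, with calls at an adjusted p under 0.05, and the code was tested on simulated data. The Pot1b to Pot1a ratio was tested by exact permutation. Named beside the 10 members were, from each list, up to 4 genes with the lowest adjusted p between untreated genotypes and up to 2 for etoposide in wild type, all passing, and for the 3 members with the greatest untreated genotype difference the 3 genes most correlated with each. Ten1 and Terf2ip, which did not pass between untreated genotypes, were named outside this rule. So were Ruvbl2 and Terc, named after their values were seen. Promoter sequences came from RefSeq (GRCm38.p6), with motifs counted in 250 bases before 27025 gene starts. Alternatives were a pseudocount of 0.1, no filter, a filter at 5 TPM, FPKM, median-of-ratios scaling, quantile normalization, the replicate number as a block, a robust spread, the compared groups alone and leaving out each library. Python 3.11.15, pandas 2.3.3, scipy 1.17.1 and matplotlib 3.10.9 were used.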

Additional observations from a re-analysis of the deposited data

How the results depend on the processing

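No difference of the 10 genes that passed limma's test changed sign under any alternative. With alternatives other than leaving out a library 415 member differences kept their direction and their side of the threshold. Of the rest, 11 lost a call, 6 gained one and 8 uncalled ones changed sign. When a library was left out, 317 kept both, 20 lost a call, 1 gained one and 22 uncalled ones changed sign. The number of libraries, 3 a group, limits the precision, and it varied by gene: the SE of a comparison was 0.03 for Dkc1 and 0.14 for Pot1b on the log2 scale. The members called between genotypes with etoposide, 8 in all, numbered 4 to 7 when a library was left out, 4 without treated knockout library 1 and 5 without treated wild-type library 1 or 3. The 174 genes called for the interaction became 104 with no filter on low values, 102 after quantile normalization and 93 to 131 when a library was left out. The cause of these changes was not tested.

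Values that changed sign were all near 0 and uncalled. The etoposide difference of Tinf2 in the knockout became -0.0037 with FPKM, -0.0061 after median-of-ratios scaling and -0.018 after quantile normalization, and ran from -0.020 to 0.041 when a library was left out. That of Terf2 in wild type became -0.0065 after quantile normalization. In the knockout, leaving out a library gave -0.092 to 0.063 for Pot1b and -0.066 to 0.021 for Rtel1, and in the treated genotype comparison -0.036 to 0.0046 for Terf1. The interaction of Acd became 0.0051 after quantile normalization (-0.078 to 0.027 when a library was left out). That of Pot1a became 0.0032 after median-of-ratios scaling (-0.043 to 0.025), and that of Dkc1 0.0093 with FPKM and 0.021 after median-of-ratios scaling (-0.027 to 0.023). The etoposide difference of the Pot1b to Pot1a ratio in the knockout ran from -0.0089 to 0.025 when a library was left out.

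Libraries with the same replicate number did not deviate together: over 18 such pairs the correlation of deviations ran from -0.045 to 0.045. Whether the numbers mark a shared day or batch is not given, and these correlations cannot decide it. With the replicate number as a block, the genes called numbered 6901 between untreated genotypes, 6068 between treated genotypes, 4702 and 3391 for etoposide in wild type and in the knockout, and 122 for the interaction. Under that block Pot1b (untreated, limma adjusted p = 0.0528), Terf2 and Tinf2 (treated, 0.0751 and 0.0524) lost their genotype calls and Rtel1 gained an etoposide call in wild type (0.0358), and no other member call changed.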
